A study of Mus musculus with 6 samples.

Results

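The cytosolic heat shock chaperones are 10 genes fixed by name: the HSP70 proteins Hspa8, Hspa1a and Hspa1b, the HSP110 protein Hsph1, the J-domain proteins Dnajb1 and Dnaja1, the HSP90 proteins Hsp90aa1 and Hsp90ab1, the small heat shock protein Hspb1 and the co-chaperone Bag3. All 10 were found among the 55385 genes of the count files, and all 10 were among the 18132 genes that passed the filter on low counts. RNA came from mouse primary cortical neurons isolated from embryos at embryonic day 18 and harvested after 16 days in vitro. AraC, which blocks DNA replication and so holds back glia, was added to control and activated cultures alike at 2.5 uM on day 2 and removed after 24 hours. Cells of the 3 control replicates were not treated further. Those of the 3 activated replicates were given KCl for 5 minutes, washed, and allowed 30 minutes of recovery in conditioned medium. The labels state the KCl concentration as 50 mM in the protocol and as 50 uM in the treatment field.

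Chaperones of this family hold unfolded proteins and pass them through cycles of binding, refolding or disposal. HSP70 binds exposed hydrophobic stretches, J-domain proteins deliver clients to it and start its ATPase, and HSP110 and BAG proteins exchange its nucleotide, after which some clients move on to HSP90. Small heat shock proteins hold clients without ATP. Many of these genes are driven by heat shock factor 1 (HSF1), which binds inverted repeats of the bases GAA in their promoters. Neurons make large amounts of the constitutive members Hspa8 and Hsp90ab1, and are known for a high threshold of the inducible response.

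Reads assigned to genes numbered between 17752711 and 32919975 per library. The check of the labels went against them: all 12 of 12 rapid activity-induced genes on the list used for it fell in the libraries labelled activated, with log2 fold changes of −1.84 for Arc, −1.84 for Npas4, −2.39 for Fosb and −1.16 for Fos. Each direction below therefore rests on the labels being right, and groups are named by their labels. Markers of neurons were abundant in all libraries, while 7 of 12 excitatory and 8 of 14 inhibitory neuron markers fell and 13 of 14 astrocyte markers rose. By the test described below, 20.6% of all genes tested were lower and 16.2% higher. Transcripts of the mitochondrial genome took 14.7% to 17.1% of gene reads in libraries labelled control and 21.3% to 25.0% in those labelled activated. The part of these differences in the results below was not tested. In bulk RNA, fewer cells of a type and less RNA per cell cannot be told apart. Whether replicates were grown as separate cultures is not in the labels, and p-values therefore rest on the spread of these samples alone, which may be technical.

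Promoter sequences were taken from a table of RefSeq promoters (GRCm38.p6) in which 7 of the 10 members were matched; those of Hspa8, Hsp90aa1 and Hsp90ab1 were not used here. The sequences of Hspa1a and Hspa1b are shown because the near identity of this pair limits what can be counted for each, and those of Hspb1 and Bag3 because these are the 2 members that rose. Each holds the 250 bases before the annotated start, 5′ to 3′ on the gene's strand, and capitals mark matches to GAANNTTC, 2 heat shock units head to head.
Hspa1a, chr17:34972157-34972406, minus strand: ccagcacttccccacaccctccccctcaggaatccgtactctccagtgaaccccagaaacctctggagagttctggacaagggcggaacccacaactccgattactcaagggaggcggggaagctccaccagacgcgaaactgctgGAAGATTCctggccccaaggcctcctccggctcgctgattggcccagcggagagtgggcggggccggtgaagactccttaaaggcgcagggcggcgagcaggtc
Hspa1b, chr17:34959239-34959488, minus strand: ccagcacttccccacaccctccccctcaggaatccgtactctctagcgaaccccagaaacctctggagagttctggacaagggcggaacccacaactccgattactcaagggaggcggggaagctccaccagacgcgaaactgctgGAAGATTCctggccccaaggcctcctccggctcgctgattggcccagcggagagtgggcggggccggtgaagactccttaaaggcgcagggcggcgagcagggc
Hspb1, chr5:135887669-135887918, plus strand: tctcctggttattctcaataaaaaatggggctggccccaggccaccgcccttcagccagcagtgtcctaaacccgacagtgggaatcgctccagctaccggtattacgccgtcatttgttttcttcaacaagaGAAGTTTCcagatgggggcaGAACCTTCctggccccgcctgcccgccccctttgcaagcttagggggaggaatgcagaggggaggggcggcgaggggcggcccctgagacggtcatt
Bag3, chr7:128523333-128523582, plus strand: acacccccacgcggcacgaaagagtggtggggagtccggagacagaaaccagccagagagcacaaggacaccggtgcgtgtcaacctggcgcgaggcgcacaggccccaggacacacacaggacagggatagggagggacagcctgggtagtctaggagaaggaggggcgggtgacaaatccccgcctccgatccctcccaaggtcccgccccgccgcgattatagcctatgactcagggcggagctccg

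The Hspa1a and Hspa1b windows differed at 3 of 250 positions, counted from 1 at the 5′ end with the base of Hspa1a first: C44T, T47C and T249G. Both held 1 match to GAANNTTC, at 104 to 97 bases before the start. Hspb1 held 2, at 117 to 110 and at 97 to 90 bases before the start. No match lay in the Bag3 window. Dnaja1 held 1 match to the same letters, before 1 of its 3 listed starts. Hsph1 held 1 match to the tail to tail order TTCNNGAA, at the same site for both of its 2 starts. Unlike those of Hspa1a, Hspa1b and Hspb1, these matches lay inside the annotated bounds of their genes, downstream of the outermost start. With them included, 5 of the 7 members in the table had a match in either order. Both orders read the same on either strand. Over all promoters of the table, 14.5% of 27025 genes had a match to either order in the same 250 bases, 7.73% to GAANNTTC and 8.11% to TTCNNGAA. The 3-unit pattern, in which GAANNTTC is followed directly by NNGAA, was searched on both strands. It overlaps both orders and was found in 0.514% of genes and in none of the 7. These matches describe letters and not binding.

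As a set, the chaperones were lower in the libraries labelled activated, apart from the small heat shock protein Hspb1 and Bag3. Of the 10 members, 7 fell (all HSP90 and J-domain members, Hsph1, Hspa8 and Hspa1b), 2 rose (Bag3 and Hspb1) and Hspa1a did not pass (edgeR quasi-likelihood test, Benjamini-Hochberg adjusted p below 0.05 over all genes). Over all genes tested, 20.6% were lower and 16.2% higher by the same rule, 36.8% in all. The members' median log2 fold change was −0.43, against 0.04 for all genes tested. No member had overlapping groups, 8 of the 10 being lower and 2 higher, as for 49.0% of all genes tested (26.4% lower and 22.6% higher). Summed over the members, the level was 2589 to 2686 CPM (gene counts relative to library size, with TMM scaling) in libraries labelled control and 1713 to 1946 CPM in those labelled activated. The members took 0.266% to 0.276% and 0.172% to 0.190% of gene reads, respectively.

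**Figure D1:**
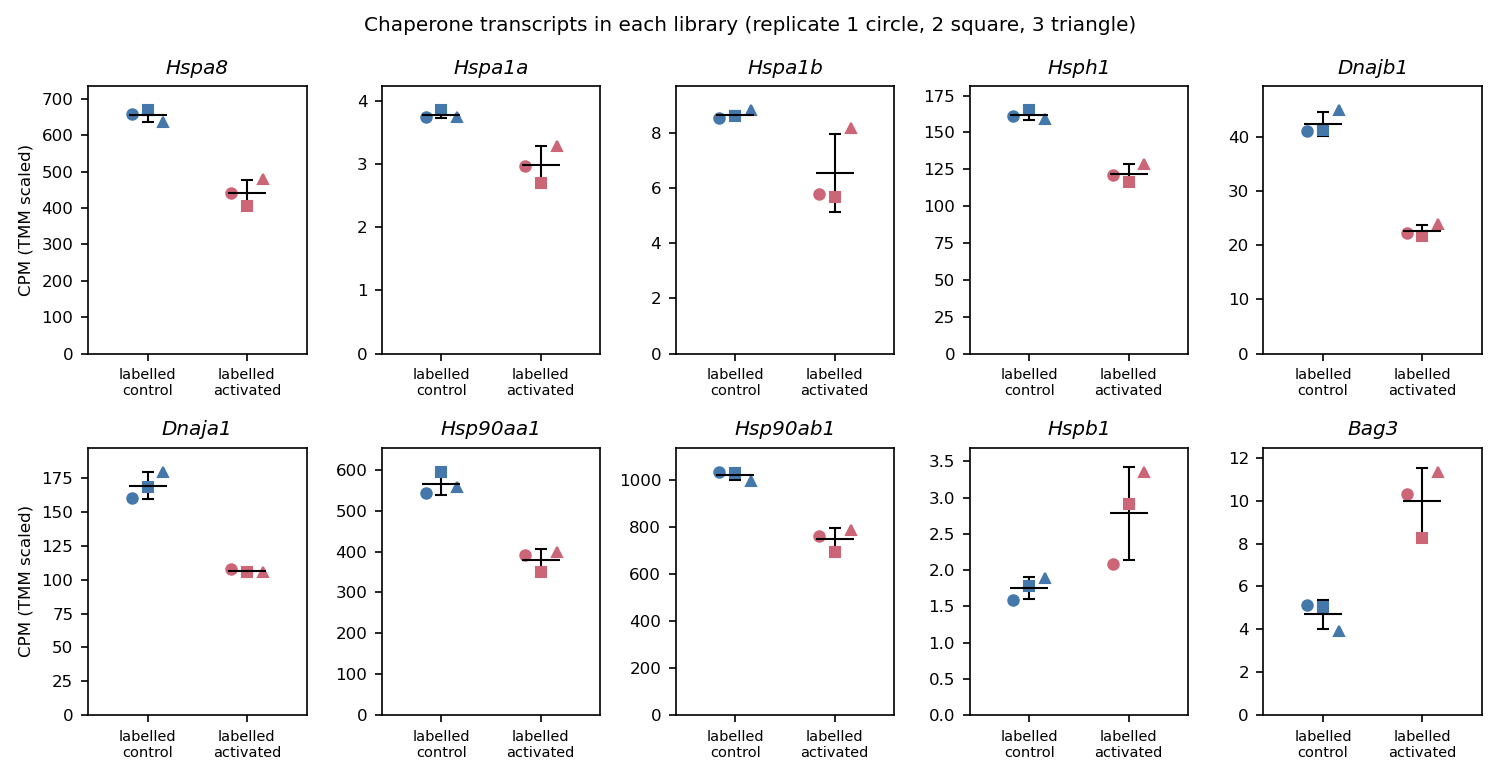
Level of each member (CPM, TMM scaled, vertical axis from 0) in the 3 libraries labelled control (blue) and the 3 labelled activated (red); black bars are the mean ± SD. The activated points of Hspb1 and Bag3 lie above all control points and those of the other 8 genes below them, with Hspa1b of activated replicate 3 (8.15 CPM) close to the controls (8.51 to 8.81 CPM).

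Gene positions are given on GRCm38 (mm10). Dnajb1, the J-domain protein of the HSP40 class that works with inducible HSP70, had the largest decrease of the 10. Dnajb1 (ENSMUSG00000005483.10, chromosome 8, 83608193 to 83612653, plus strand) stood at 41.2, 41.2 and 45.0 CPM in replicates 1, 2 and 3 labelled control, and at 22.3, 21.7 and 23.9 CPM in those labelled activated; this order is kept below. All 3 libraries labelled activated lay close together and far below the lowest control, and the mean of the control libraries was 1.87 times theirs. The log2 fold change, labelled activated over labelled control as throughout, was −0.91 ± 0.07 (SE, n = 3 per group; edgeR adjusted p = 4.18e-06), and 0.447% of tested genes (81) had a value as low or lower. Dnaja1, a second J-domain protein that also carries a farnesyl group, followed it. Dnaja1 (ENSMUSG00000028410.13, chromosome 4, 40722150 to 40737149, plus strand) went from 161, 169 and 180 CPM to 108, 106 and 105 CPM. Its log2 fold change came to −0.67 ± 0.06 (SE; edgeR adjusted p = 1.23e-05). Of all stretches of 150 bases in its longest coding transcript, 20.0% also occurred in the transcript of another gene, most often the processed pseudogene Gm15542 on chromosome 7, which had 13 to 33 reads per library.

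Hspa8 encodes HSC70, the constitutive HSP70 that also strips clathrin from vesicles and feeds chaperone-mediated autophagy. Hspa8 (ENSMUSG00000015656.17, chromosome 9, 40800984 to 40810087, plus strand) went from 659, 668 and 636 CPM in control to 441, 407 and 478 CPM in activated replicates. The lowest control value was above the highest activated value by a wide margin. The change was −0.57 ± 0.07 on the log2 scale (SE; edgeR adjusted p = 6.85e-05). Of its 150-base stretches, 56.0% occurred in the transcript of another gene. Reads from them cannot be given to it with certainty and may be missing from its count. Hsph1, the HSP110 nucleotide exchange factor of HSP70, shared 0 such stretches with another gene. Hsph1 (ENSMUSG00000029657.15, chromosome 5, 149614287 to 149636376, minus strand) went from 161, 165 and 159 CPM to 121, 116 and 129 CPM, with tight values within both groups. Its log2 fold change reached −0.40 ± 0.06 (SE; edgeR adjusted p = 0.000241), and it lost its call only with libraries scaled to neuron markers, described below (−0.10, adjusted p = 0.162).

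The inducible HSP70 pair was expressed at a low level in both groups. Hspa1a and Hspa1b are single-exon genes whose coding sequences of 1923 and 1926 bases were 99.4% identical, with 8 mismatches and 3 gap bases. Of the stretches of 150 bases in their transcripts, 46.0% and 40.5% occurred in another gene. Reads from the shared part cannot be given to either with certainty and may be missing from both counts. Hspa1b (ENSMUSG00000090877.3, chromosome 17, 34956436 to 34959238, minus strand) went from 8.51, 8.60 and 8.81 CPM to 5.77, 5.68 and 8.15 CPM. Activated replicates 1 and 2 were the low ones, and activated replicate 3 was just under the lowest control. Its log2 fold change of −0.39 ± 0.14 (SE) was at the edge of the threshold (edgeR adjusted p = 0.0448). The call was lost when any 1 library other than activated replicate 3 was left out (−0.28 to −0.39, adjusted p of 0.0900 to 0.163). It was also lost in the DESeq2 Wald test (−0.39, adjusted p = 0.0516) and with a filter of 1 CPM in at least 3 libraries (−0.35, adjusted p = 0.0574). Without activated replicate 3 it was −0.60 (adjusted p = 0.00120). Hspa1a (ENSMUSG00000091971.3, chromosome 17, 34969190 to 34972156, minus strand) had 3.74, 3.85 and 3.75 CPM against 2.98, 2.69 and 3.29 CPM. Its log2 fold change of −0.34 ± 0.16 did not pass (edgeR adjusted p = 0.109). These values rested on 106, 91 and 127 reads in control replicates and on 50, 75 and 105 reads in activated ones. With the counts of both genes summed, the level was 12.4 ± 0.15 CPM in control and 9.52 ± 1.68 CPM in activated libraries (SD, n = 3 each). On the log2 scale the summed pair changed by −0.37 ± 0.12 (SE; edgeR quasi-likelihood adjusted p = 0.0253). That call was also lost without any 1 library except activated replicate 3 (−0.27 to −0.38, adjusted p of 0.0577 to 0.104). Without activated replicate 3 the summed value was −0.54 (adjusted p = 0.000745).

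Both HSP90 genes were abundant, and both fell. Hsp90ab1 (ENSMUSG00000023944.14, chromosome 17, 45567775 to 45573271, minus strand), the constitutive beta form, went from 1034, 1029 and 994 CPM to 763, 692 and 785 CPM. On the log2 scale it changed by −0.45 ± 0.07 (SE; edgeR adjusted p = 0.000257). Hsp90aa1 (ENSMUSG00000021270.13, chromosome 12, 110690605 to 110702728, minus strand), the inducible alpha form, went from 544, 595 and 557 CPM to 392, 351 and 399 CPM. It changed by −0.57 ± 0.07 on the log2 scale (SE; edgeR adjusted p = 5.94e-05). In both genes activated replicate 2 was the lowest library. Of the 150-base stretches of Hsp90aa1, 36.2% occurred in another gene, most of them in the transcribed pseudogene Gm12346 on chromosome 11, which itself had 78 to 170 reads per library, while Hsp90ab1 shared none.

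Bag3 and Hspb1 went the other way. Bag3 is a nucleotide exchange factor that links HSP70 to small heat shock proteins and to selective autophagy of misfolded proteins. Bag3 (ENSMUSG00000030847.8, chromosome 7, 128523616 to 128546981, plus strand) went from 5.16, 5.04 and 3.90 CPM to 10.3, 8.26 and 11.4 CPM. Every library labelled activated was above every control, and control replicate 3 was the lowest of all. The increase was 1.09 ± 0.15 on the log2 scale (SE; edgeR adjusted p = 0.000134), and 1.11% of tested genes (201) had a value as high or higher. Bag3 kept its call in all alternatives run, between 0.97 and 1.39, and shared no 150-base stretch with another gene. Hspb1 encodes HSP27, an ATP-independent holdase that also binds actin. Hspb1 (ENSMUSG00000004951.10, chromosome 5, 135887919 to 135889563, plus strand) went from 1.59, 1.78 and 1.89 CPM to 2.08, 2.91 and 3.36 CPM. These are 45, 42 and 64 reads against 35, 81 and 107 reads, in total the fewest of the set (374, against 554 for Hspa1a). Of its 150-base stretches, 36.6% also occurred in the pseudogene Hsp25-ps1, which had at most 7 reads in a library. Its log2 fold change came to 0.69 ± 0.21 (SE; edgeR adjusted p = 0.0178). The call was lost without control replicate 1 (0.63, adjusted p = 0.0647) or activated replicate 3 (0.54, adjusted p = 0.0673).

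Markers of cell types other than neurons moved with these increases. In the same fit, 16.2% of all genes tested were higher and 20.6% lower. Of the astrocyte markers 13 of 14 rose, with a summed level of 1387 to 1427 CPM in control and 1840 to 2233 CPM in activated libraries. Of 11 tested endothelial, mural and fibroblast markers (of 13) 9 rose, from 223 to 259 CPM up to 361 to 427 CPM, and their median log2 fold change was 0.73. Of 10 microglia markers tested (of 12) 7 rose, with overlapping sums of 52.7 to 72.5 CPM and 64.5 to 122 CPM. Of 7 oligodendrocyte lineage markers tested (of 11) 4 rose, from 59.8 to 65.2 CPM up to 78.5 to 90.1 CPM. None of these markers was at 0 in every library, though S100b, Sox10, Mog, Mag, Mobp, P2ry12, Tmem119, Cldn5 and Lum averaged under 1 CPM. Inhibitory neuron markers summed to 2271 to 2364 CPM in control and 1670 to 1842 CPM in activated libraries. Excitatory markers summed to 2219 to 2331 CPM and 2349 to 2543 CPM, although 7 of 12 fell and 1 rose. The part of these shifts in the changes of Bag3, Hspb1 and the other members was not tested.

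Size and call depended on how libraries were scaled, while the sign of each member's estimate did not. Scaling libraries to the excitatory and inhibitory neuron markers raised the median log2 fold change of all genes by 0.30, to 0.34. That of the members became −0.13. With this scaling 5 of the 10 members were lower and 2 higher, against 689 and 8713 of all 18132 genes tested. Dnajb1 (−0.60), Dnaja1 (−0.37), Hsp90aa1 (−0.27), Hspa8 (−0.27) and Hsp90ab1 (−0.15) were still called. Hsph1, Hspa1b (−0.09 ± 0.14, SE) and Hspa1a (−0.04 ± 0.16) were not. For Hspa1b and Hspa1a the SE was larger than the change, so their direction with this scaling is not settled. Bag3 and Hspb1 stood at 1.39 and 0.995 there. With total counts only, the same numbers of members were called as with TMM, 7 lower and 2 higher. No member changed sign in any of the alternatives run. Over all genes the share of calls that were lower was 55.9% with TMM, 68.7% with total counts and 7.33% with the neuron marker scaling.

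**Figure D2:**
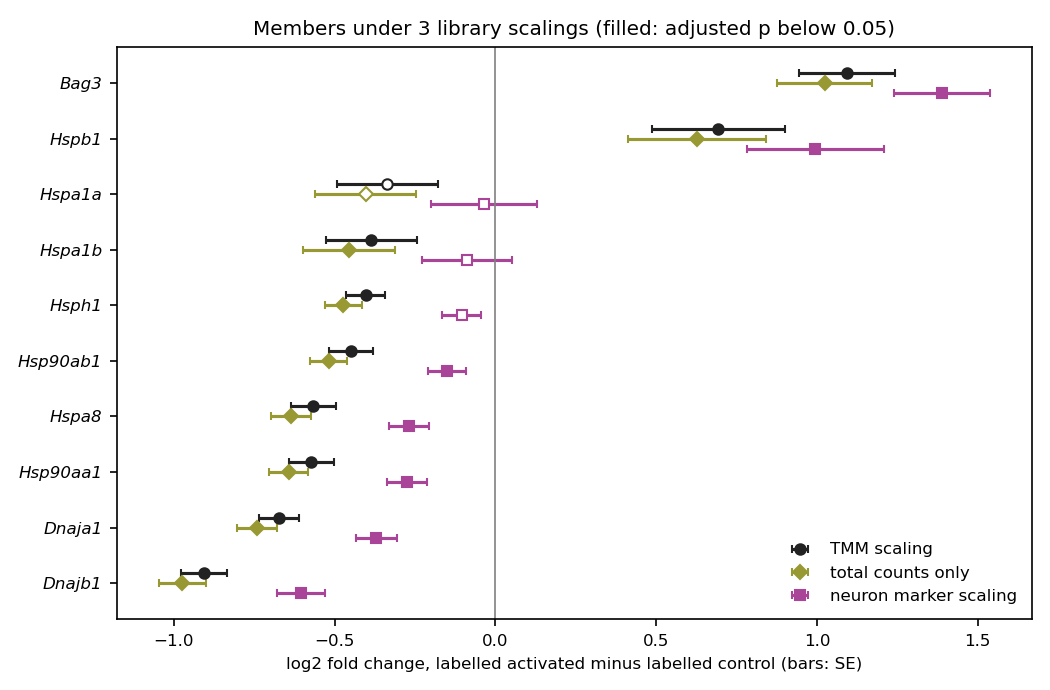
Log2 fold change of each member (horizontal axis, labelled activated minus labelled control, bars are SE) with TMM scaling (black circles), total counts only (yellow diamonds) and scaling to neuron markers (purple squares); filled symbols have an adjusted p below 0.05. The points of all 8 genes from Hspa1a to Dnajb1 lie below 0 under each scaling and those of Bag3 and Hspb1 above it. With neuron marker scaling the bars of Hspa1a and Hspa1b cross 0.

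Ratios between genes within a library are free of any scaling factor, and 7 were computed, 6 of them between members and all chosen after the values above were seen. Dnajb1 went from 6.25, 6.17 and 7.07 reads per 100 reads of Hspa8 to 5.05, 5.34 and 5.00. Relative to the constitutive Hspa8, Dnajb1 was thus lower in every library labelled activated than in any control. Its ratio to the inducible HSP70 genes was not computed. Hsph1 stood at 24.7 ± 0.27 reads per 100 reads of Hspa8 in control and 27.7 ± 0.83 in activated libraries (SD, n = 3 each). Bag3, set against Hspa8 in the same way, had 0.717 ± 0.09 and 2.25 ± 0.19 reads per 100, a ratio of the means of 3.13. Hspb1 had 0.268 ± 0.03 and 0.630 ± 0.14. Hsp90aa1 had 55.5 ± 2.65 reads per 100 reads of Hsp90ab1 in control and 50.9 ± 0.36 in activated libraries. For each of these 5 the groups did not overlap (exact permutation test, two-sided p = 0.1, and 0.117 adjusted over the 7). The value of 0.1 is the smallest that 3 against 3 allow, so no ratio could pass the threshold used for genes. For Bag3 and Hspb1 the lack of overlap followed from the levels above. Every library labelled activated was above every control for these genes and below every control for Hspa8. Dnaja1 per 100 reads of Hspa8 was 26.0 ± 2.06 and 24.2 ± 2.02 with overlapping groups (exact p = 0.5).

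**Figure D3:**
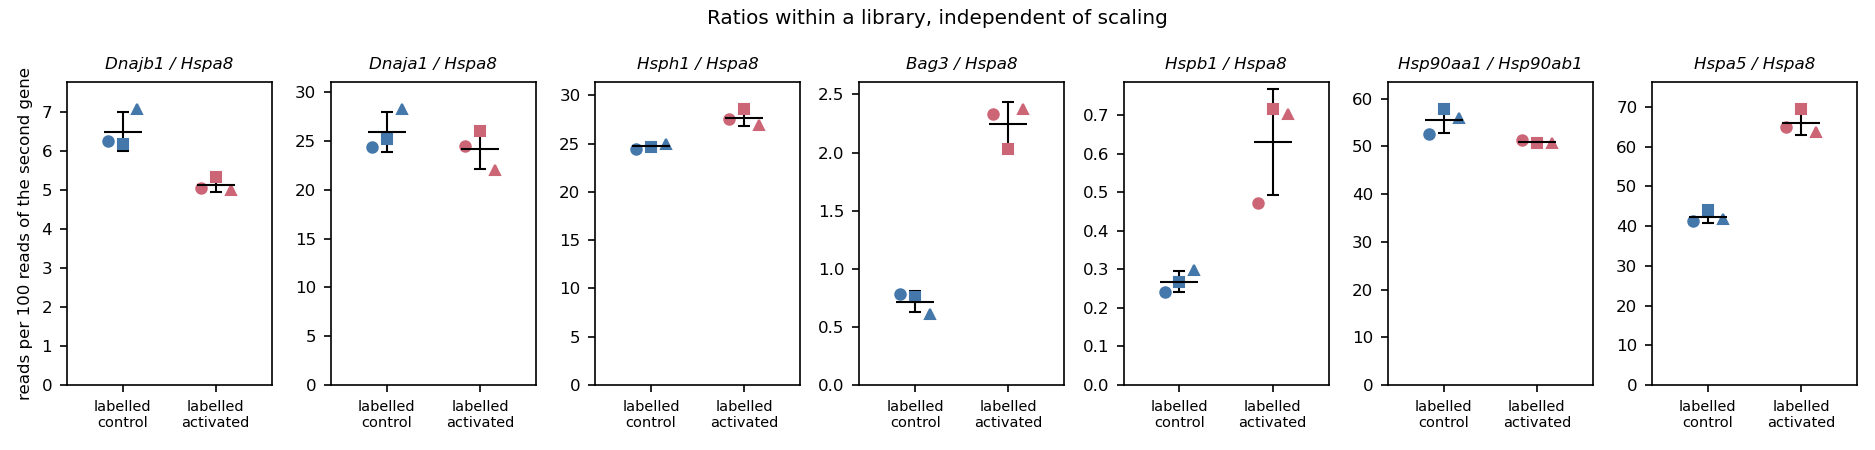
Reads of one gene per 100 reads of another in the same library (vertical axes from 0), for 3 libraries labelled control (blue) and 3 labelled activated (red), with the mean ± SD in black. The activated points lie lower for Dnajb1 and Hsp90aa1 and higher for Hsph1, Bag3, Hspb1 and Hspa5, and of the 7 ratios only that of Dnaja1 has overlapping groups.

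Per kilobase of annotated exon, Hsp90ab1 was the highest member in libraries labelled control at 340 ± 7.25 CPM per kb (SD, n = 3). Hspa8 (152 ± 3.89) and Hsp90aa1 (144 ± 6.72) followed, with overlapping ranges. Hsph1 (22.2 ± 0.43), Dnaja1 (19.7 ± 1.12) and Dnajb1 (13.2 ± 0.68) formed a middle group whose ranges did not overlap. Hspa1b stood at 3.08 ± 0.05, Bag3 at 1.83 ± 0.27, Hspb1 at 1.70 ± 0.15 and Hspa1a at 1.28 ± 0.02 CPM per kb, with overlap only between Bag3 and Hspb1. In libraries labelled activated the first 6 kept this order. Below them came Bag3 (3.89 ± 0.61), Hspb1 (2.70 ± 0.63), Hspa1b (2.33 ± 0.50) and Hspa1a (1.01 ± 0.10). The ranges of Bag3 and Hspb1 overlapped there, as did those of Hspb1 and Hspa1b, while those of Bag3 and Hspa1b did not. This scale uses all annotated exons of a gene, which for Hspa8, Hsph1 and Dnaja1 add up to 4301, 7266 and 8629 bases, against 2394, 3802 and 5622 bases in the longest coding transcript. Per kilobase of that transcript, a length chosen after seeing the data, Hspa8 stood at 273 ± 6.98 and Hsp90aa1 at 172 ± 8.05 CPM per kb in control libraries, and their ranges no longer overlapped. On that length Hspb1 (1.89 ± 0.16) and Bag3 (1.83 ± 0.27) changed places in control libraries, still with overlap, and no other neighbours did. Reads that map to several places are not in these counts. Of the 150-base stretches, 56.0% were shared with another gene for Hspa8, 46.0% for Hspa1a and 40.5% for Hspa1b. The shares were 36.6% for Hspb1, 36.2% for Hsp90aa1 and 20.0% for Dnaja1, while Hsp90ab1, Hsph1, Dnajb1 and Bag3 shared none. Levels of the former may be too low, so the order between genes is not certain on either length.

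The rest of the cytosolic chaperone network was read from the same fit, in 5 lists with 56 genes, of which 49 were tested. Of these 32 fell, 2 rose and 15 did not pass. By the same rule 20.6% of all genes tested were lower and 16.2% higher, which is also the background for each list below. With libraries scaled to neuron markers 8 of the 49 were lower and 9 higher, against 689 and 8713 of all 18132 genes tested. With TMM the median log2 fold change of the 49 was −0.34, against 0.04 for all genes. Among 17 tested HSP70, HSP110 and J-domain genes outside the set, 13 fell and none rose (median −0.34), against 1 lower and 2 higher with the neuron marker scaling. Dnaja2, a paralogue of Dnaja1, had a log2 fold change of −0.64, the brain-enriched Hspa12a −0.45, the HSP110 protein Hspa4 −0.40 and Dnajb6, a suppressor of polyglutamine aggregation, −0.37. Among 8 HSP70 cofactors 7 fell (median −0.38), and 3 were lower with that scaling. They included Bag5 (21.6 ± 2.58 to 12.8 ± 0.75 CPM; −0.74), the exchange factor Hspbp1 (−0.54), the ubiquitin ligase Stub1, also called CHIP (−0.49), and St13, which steadies the HSP70 and client complex (−0.37). Of the BAG genes, singled out after their values were seen, Bag1 (−0.24), Bag4 (−0.39), Bag5 and Bag6 (−0.24) fell, Bag2 (−0.32) did not pass and Bag3 rose; with the neuron marker scaling, Bag5 was the only one of the 4 still called.

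Of 15 co-chaperones of HSP90 tested, 11 fell, 4 did not pass and none rose (median −0.44). Over all genes tested, 20.6% were lower and 16.2% higher. With the neuron marker scaling 3 were lower and 3 higher, against 689 and 8713 of all 18132 genes tested. Fkbp4, an immunophilin of steroid receptor complexes, had a log2 fold change of −0.60, the myosin chaperone Unc45a −0.52, Stip1, which bridges HSP70 and HSP90, −0.50, and the phosphatase Ppp5c −0.50. Of 4 other small heat shock proteins tested (of 8 on the list), 2 rose and none fell. Hspb8, the partner of BAG3, went from 6.15, 5.00 and 4.76 CPM to 8.99, 9.23 and 9.63 CPM (log2 fold change 0.81 ± 0.13, SE; edgeR adjusted p = 0.000288). Cryab, which encodes alpha-B crystallin, went from 10.3, 8.13 and 10.5 CPM to 13.3, 11.6 and 14.7 CPM (0.45 ± 0.12; edgeR adjusted p = 0.0108). Hspb6 (0.37) and Hspb3 (0.05) did not pass. The rise of these genes, like that of Bag3 and Hspb1, stood beside the higher glial and vascular markers given above. The decreases stood beside neuron markers of which 7 of 12 excitatory (1 rose) and 8 of 14 inhibitory ones (0 rose) fell. The part of either shift in these changes was not tested.

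**Figure D4:**
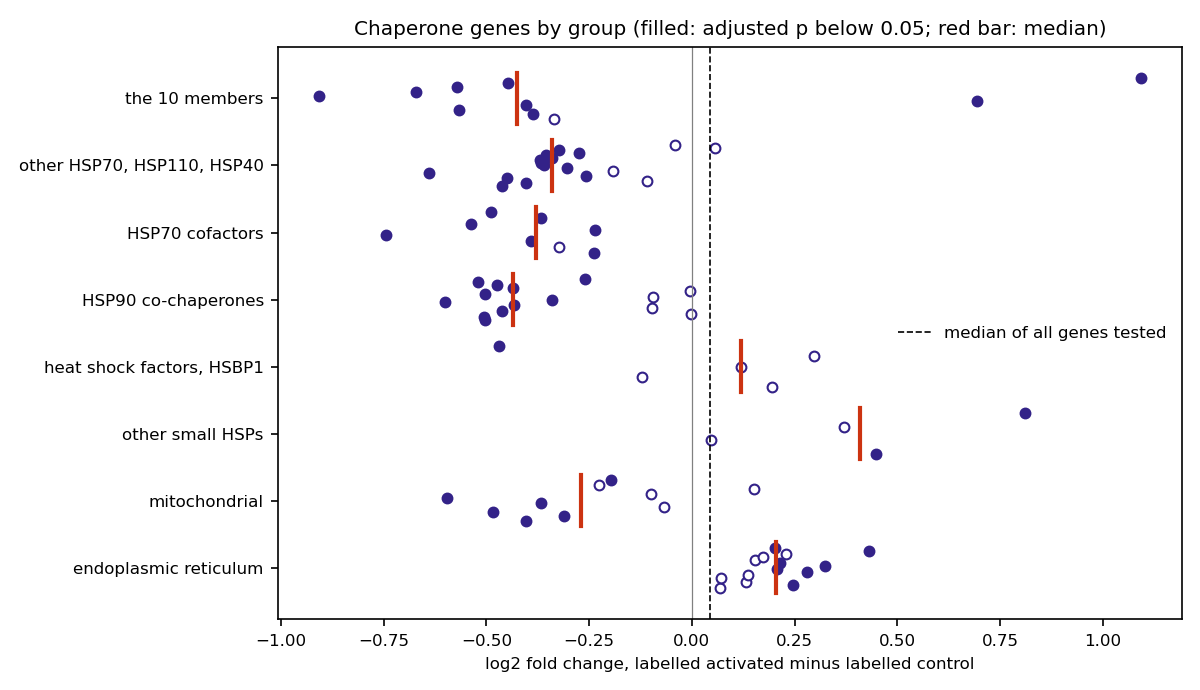
Log2 fold change (horizontal axis) of each tested gene in 8 chaperone lists; filled points have an adjusted p below 0.05, red bars are list medians and the dashed line is the median of all genes (0.04). The medians of the 10 members (−0.43), other HSP70 and HSP40 genes (−0.34) and HSP90 co-chaperones (−0.44) lie below 0, those of other small heat shock proteins (0.41) and endoplasmic reticulum chaperones (0.20) above it.

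Of 6 genes for heat shock factors and the binding protein HSBP1, 5 were tested and 1, Hsbp1, fell, against 20.6% of all genes tested. Hsf1 had 20.1 ± 0.79 CPM in control and 23.0 ± 0.35 CPM in activated libraries, a log2 fold change of 0.20 ± 0.07 that did not pass (edgeR adjusted p = 0.0544). It passed under the 1 CPM filter (0.23), under the neuron marker scaling (0.50) and without control replicate 2 (0.24). Hsf2 (−0.12) and Hsf5 (0.30) did not pass. Hsbp1, whose small protein restrains HSF1, fell from 184 ± 5.39 to 133 ± 10.4 CPM (−0.47 ± 0.07; edgeR adjusted p = 0.000173).

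Chaperones of other compartments were compared because they do similar work, some of them with paralogues of the members. Of 10 mitochondrial chaperones and proteases, 6 fell and none rose (median −0.27). Over all genes tested, 20.6% were lower and 16.2% higher. With the neuron marker scaling 2 were lower and 2 higher, against 689 and 8713 of all 18132 genes tested. Among those that fell were Grpel1, the exchange factor of mitochondrial HSP70 (−0.60), Hspa9, that HSP70 (−0.48), Hspd1, which encodes HSP60 (−0.40), and the J-domain protein Dnaja3 (−0.37). Of 14 chaperones of the endoplasmic reticulum 7 rose and none fell (median 0.20), among them Creld2 (0.43), the disulfide isomerase Pdia4 (0.32), the J-domain protein Dnajc3 (0.28) and Hsp90b1, the HSP90 of that compartment (0.25). This count was 4 with total counts only, with unstranded counts, without control replicate 3 and without activated replicate 1. It was 14 with the neuron marker scaling, where 8713 of all 18132 genes tested were higher. Hspa5, the HSP70 of the endoplasmic reticulum, had 42.4 ± 1.52 reads per 100 reads of Hspa8 in control and 65.9 ± 3.07 in activated libraries (SD, n = 3), without overlap (exact permutation test, two-sided p = 0.1, the smallest possible, 0.117 adjusted over 7 ratios).

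The genes whose level followed that of Hsph1 most closely were found over 6 libraries among 9198 genes with a mean of at least 10 CPM. By Pearson r of log2 CPM, from 0.99881 to 0.99965, they were Abcf1 (log2 fold change −0.50), Max (−0.39), Polr2g (−0.52), Idh3b (−0.43) and Necap1 (−0.65). Among the members, Hsph1 and Hspa8 were the closest pair (r = 0.999), and Bag3 and Dnaja1 the most opposed (r = −0.96). These correlations describe 6 libraries whose groups differ and which share depth and scaling.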

How the data were processed

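Strand-specific libraries were made from rRNA-depleted RNA, per the labels' protocols. The submitters' processing notes list STAR 2.5.2b, edgeR and the mm10 build; the annotation release is not given in the sources used here. The deposited files hold raw read counts per gene as STAR writes them, with no normalization by the authors. The reverse-strand counts were used because the other strand held 4.05% to 4.29% of gene reads; reads in no gene were left out (25.1% to 37.3% of all reads). Gene positions and types come from GENCODE M21, promoters from RefSeq.

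Genes were kept by edgeR's default filter (10 counts as minimum, 15 in total), scaled by TMM and compared with the edgeR 4.0.16 quasi-likelihood test in R 4.3.3, fitted on all 6 libraries without covariates, with Benjamini-Hochberg adjustment over 18132 genes and a threshold of 0.05. Dividing the size of a log2 fold change by √F gave its standard error. Alternatives were DESeq2 1.42.0, other scalings and filters, counting without strand, a block for replicate number, each library left out, and Hspa1a and Hspa1b summed. Named genes were the 10 members, up to 4 genes with the smallest p in each chaperone list, the 5 genes closest to Hsph1, and 4 genes for the check of labels. Members and lists were chosen with earlier results of these data known.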

Additional observations from a re-analysis of the deposited data

Results flagged for a closer look

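Reads on the opposite strand, which enter only the alternative with unstranded counts, were looked at for all 10 members, of which 7 had at least 15 such reads. In 2 of these 7 every library labelled activated was above every control, and in none was every one below. The share of all genes that do so on that strand was not computed, so this count has no background to be read against. Hsph1 had 7, 5 and 5 such reads in control and 3, 3 and 1 in activated replicates, with overlapping CPM. At Dnajb1 they averaged 0.400 CPM (0.287 to 0.536) in libraries labelled activated, from 29 reads, against 0.177 CPM (0.141 to 0.212) in those labelled control, from 15 reads. Set against the reads of Dnajb1 itself, which fell, that is 1.67% and 0.410%. At Hspa1b they averaged 0.153 CPM (0.119 to 0.216) from 12 reads, against 0.0696 CPM (0.0353 to 0.0887) from 6 reads. Both rest on few reads, and the differences were not tested.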

How the results depend on the processing

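Of 150 alternative values of the members, 138 kept their direction and side of the threshold and 12 kept direction but lost the call; none reversed. Of 553 values of other named genes, 534 kept both, 9 lost the call, 4 gained it and 6 reversed. Leaving out 1 library gave 1 to 2 members higher and 6 to 7 lower, and −0.27 to −0.54 for Hspa1a and Hspa1b summed. Scaling to neuron markers gave −0.074 for that sum (adjusted p = 0.615), 5 members lower, and 9 network genes higher and 8 lower against 2 and 32. All genes called then numbered 8713 higher and 689 lower, against 2945 and 3733 with TMM and 2089 and 4576 with total counts; the cause was not tested. Reversed values, none of them called, were Hsf2 (0.18, neuron marker scaling), Hsf5 (−0.014 without activated replicate 2, up to 0.45 without activated replicate 3) and Hspb3 (−0.017 with total counts, −0.016 with unstranded counts, −0.041 without control replicate 2, −0.13 to 0.13 over single libraries left out). Correlations of deviations from the group mean were −0.0144, −0.182 and −0.215 for equal replicate numbers and −0.0426 to 0.21 for unequal ones. Whether equal numbers mark shared cultures is not in the labels, and such values from 3 replicates per group cannot decide it. With the replicate number as a block, 2 members were higher and 6 lower, as Hspa1b lost its call (−0.41, adjusted p = 0.0541); the block gave 2173 genes higher and 3105 lower, 2 network genes higher and 31 lower, and −0.39 for the summed pair. Low counts limit Hspb3, Hsf5, Hspb6 and, of the members, Hspb1 and Hspa1a.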
